A study of Homo sapiens with 9 samples.

Results

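LEF1, its TCF relatives and common readouts of Wnt signalling were followed in OEC-M1 cells in which GATA3 or HIF-1α had been knocked down. OEC-M1 is a head and neck squamous cell carcinoma (HNSCC) cell line. The members were 10 of the 47753 genes on the array, namely LEF1, TCF7, TCF7L1, TCF7L2, CTNNB1, AXIN1, AXIN2, DKK1, NKD1 and RNF43, and they were measured by 15 probes. They were found by matching the accession of every non-control probe to RefSeq symbols. The set was chosen because LEF1 was lower in both knockdowns than in the control cells, so the 2 differences of LEF1 from the control are described here without a test. The other 9 members were not selected on their own values in that rule, but they were chosen with earlier results of these data known.

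There were 9 one-colour Agilent arrays in 3 groups of 3. The siControl cells received non-targeting siRNA, the siGATA3 cells siRNA against GATA3 and the siHIF1A cells siRNA against HIF1A. The cells of all groups, control cells included, were kept at 1% O2 for 18 h, and expression was read at 72 h of transfection, so no normoxic cells enter these comparisons. The study names 1 siRNA per target for this experiment, and an effect of the siRNA and an effect of the loss of its target are measured together. For selected genes, LEF1 among them, the paper also used real-time RT-PCR with more than 1 siRNA per target. It reports that the differential expression was borne out there, and those measurements are not part of these arrays. Labels do not say whether the 3 samples of a group were separate cultures, so the P values measure the spread between these samples, which may be technical, and with 3 arrays per group every value has limited precision. Arrays with the same replicate number lay on the same slide, and each of the 3 slides held 1 array of each group.

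LEF1 and the TCF factors are the DNA-binding partners of β-catenin. When no Wnt ligand is bound, a destruction complex built on AXIN1 or AXIN2 marks β-catenin for degradation, and TCF factors on target genes are held silent by co-repressors of the TLE family. Wnt binding to Frizzled and LRP5 or LRP6 stops this degradation, and β-catenin then enters the nucleus and joins LEF1 or a TCF on the target genes. AXIN2, NKD1, RNF43 and DKK1 are widely used as readouts because the pathway induces them in many tissues, and each of them also restrains it. In epithelia and their tumours LEF1 is itself a target of the pathway, and in lymphocytes LEF1 and TCF7 are lineage factors. GATA3 is a zinc finger transcription factor of luminal epithelium and T lymphocytes, and HIF-1α is the oxygen-regulated subunit of HIF-1.

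Both knockdowns were visible in the RNA of their target. The normalized log2 signal of GATA3 was lower on every siGATA3 array than on every siControl array, by 1.26 on average (SE 0.337), while HIF1A differed by -0.04 (SE 0.346). HIF1A was lower on every siHIF1A array, by 2.31 (SE 0.346), and GATA3 there differed by -0.37 (SE 0.337). The median spot signal ranged from 992.5 to 2807.5 on siControl, from 1410 to 2452 on siGATA3 and from 2132 to 3560 on siHIF1A arrays, before normalization. No gene of the whole array passed an adjusted P of 0.05 in siGATA3 or siHIF1A against siControl, and 2 passed in siGATA3 against siHIF1A (limma, Benjamini-Hochberg). At the unadjusted P of 0.05, 1404, 2471 and 5689 genes passed in the 3 comparisons. Members were therefore called at the unadjusted P of 0.05 that the study used, and the adjusted P, taken over all genes, stands beside each called difference.

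The cells were also checked against marker genes. Of 12 markers of squamous epithelium, 10 were well above background on all 9 arrays (among them KRT14, TP63 and CDH1), and KRT5 was well above background on none. On single arrays 73.31% to 88.02% of all probes were well above background, so this mark does little to tell cell types apart. All 5 markers of T lymphocytes (CD3D, CD3E, CD2, LCK and PTPRC) were also well above background on all 9 arrays, although the labels name a carcinoma line. Their summed signal was 50750 to 116600 on siControl, 70560 to 115800 on siGATA3 and 119100 to 121900 on siHIF1A arrays. As LEF1 and TCF7 are expressed in T lymphocytes too, these values are given beside them, and their part in the results was not tested. Of the other lists, 2 of 7 fibroblast markers, 1 of 3 macrophage markers and 3 of 4 endothelial markers were well above background on all arrays, and the fibroblast genes COL3A1, LUM and PDGFRA on none.

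LEF1, the factor that gave the set its name, was measured by 1 probe. On the siControl arrays its normalized log2 signal was 8.02, 9.002 and 9.32 in replicates 1 to 3. On the siGATA3 arrays it was 7.78, 8.24 and 7.61, and on the siHIF1A arrays 7.58, 7.37 and 7.69. The siHIF1A arrays all lay below the siControl arrays, whereas siGATA3 replicate 2 lay above siControl replicate 1. The probe was dim throughout. It was well above background on all 3 siControl arrays, on 1 siGATA3 array and on no siHIF1A array. Of all probes, 85.77% to 88.02% had this mark on siControl, 73.31% to 83.02% on siGATA3 and 80.03% to 87.02% on siHIF1A arrays. Such marks were thus fewer on siGATA3 than on siControl arrays over the array as a whole. RNA was measured in bulk, where fewer expressing cells and less RNA per cell cannot be told apart.

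The mean of LEF1 was lower by 0.90 (SE 0.342) on the log2 scale in siGATA3 than in siControl, or 1.87-fold. In siHIF1A it was lower by 1.23 (SE 0.342). By these means this is at least 2.35-fold, because the siHIF1A values have only a bound, here equal to the fold between the measured means. That bound does not cover the spread between arrays. Within slides 1, 2 and 3 the log2 differences were -0.24, -0.76 and -1.70 in siGATA3, and -0.44, -1.63 and -1.63 in siHIF1A. All these within-slide differences had the same sign, and the smallest in each knockdown was on slide 1, whose siControl array was the lowest of its group. Without that siControl array the mean log2 differences were -1.28 and -1.61. The size also moved with the background treatment, and with the scanner's own processed signal, set to a common 75th percentile, the log2 differences were -1.6 and -2.2. Both comparisons share the siControl arrays, so they are not independent of each other.

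The direct comparison of the knockdowns did not itself choose LEF1. It uses the same knockdown arrays, however, on which LEF1 was chosen for being low, so its test is not independent of that choice. The mean log2 signal of LEF1 was 7.88 in siGATA3, where 1 array was well above background, and 7.55 in siHIF1A, where none was. By these means LEF1 was 1.26-fold higher in siGATA3, but both means rest on values near background, so this is not a lower bound. The difference did not pass the test (adjusted P = 0.632, limma). With the probe this close to background, the 2 knockdowns were not shown to differ or to be alike in LEF1.

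**Figure D1:**
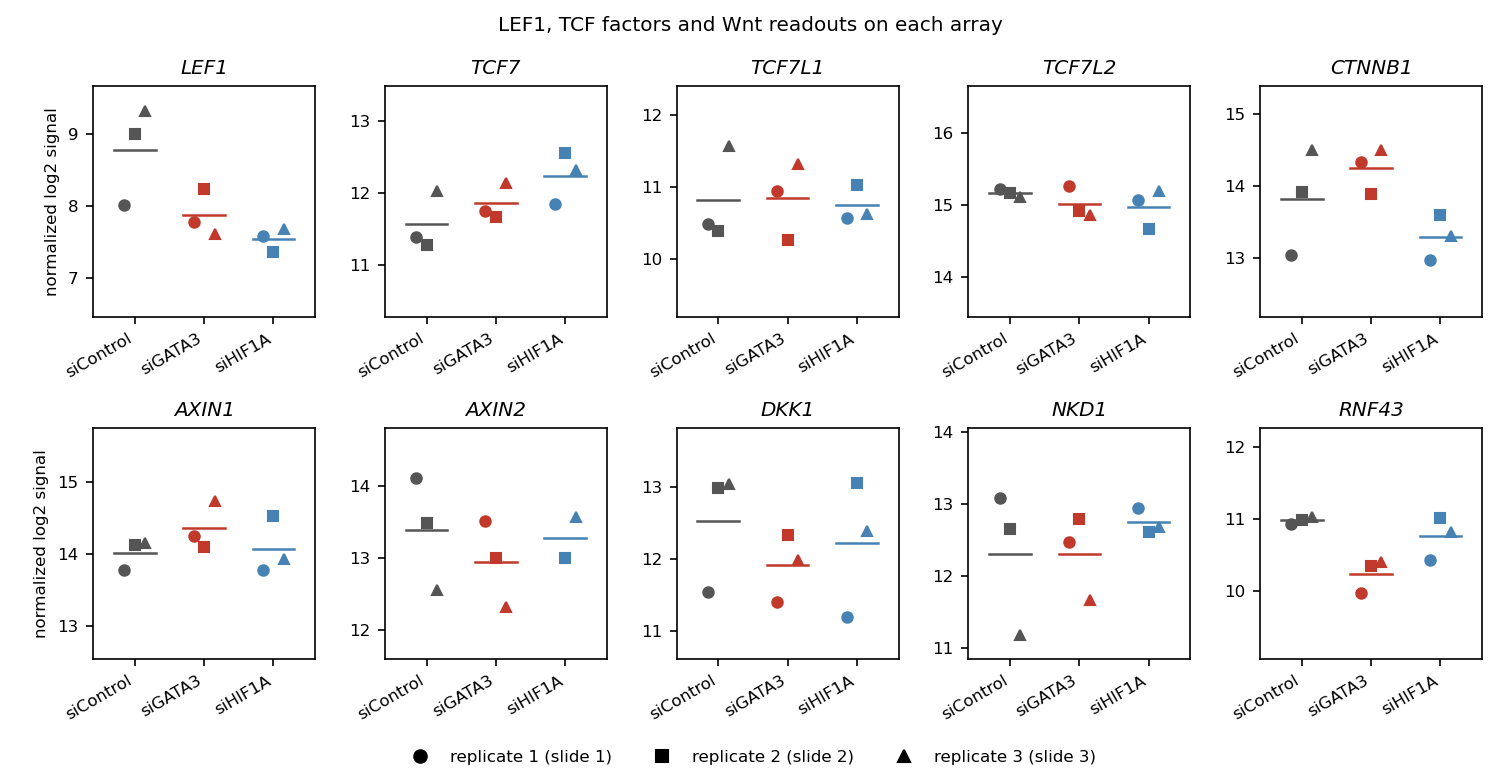
Normalized log2 signal of the 10 members (vertical axis) on each of the 9 arrays by group, with the symbol giving the replicate and slide and the line the group mean. Every panel spans the same number of log2 units, and heights of different genes are not comparable. LEF1 lies lowest in siHIF1A, RNF43 is lower on all 3 siGATA3 arrays than on any other array, and AXIN2 lacks siHIF1A replicate 1, whose spot was not uniform.

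Promoter sequence is shown for LEF1 and for the members called against siControl, RNF43 in siGATA3 and TCF7 in siHIF1A, because GATA3 and HIF-1α are DNA-binding factors. The windows are from RefSeq on GRCh38.p14 and run from 250 bases before to 50 bases after an annotated start, written 5′ to 3′ on the gene's strand. They hold 1 window for LEF1 at chr4:108166252-108166551 on the minus strand, RNF43 windows at chr17:58417485-58417784 (first) and chr17:58402672-58402971 (second) on the minus strand, and a TCF7 window at chr5:134123368-134123667 on the plus strand. Capitals mark matches, on either strand, to AGATAA or TGATAA (the GATA motif), ACGTG or GCGTG (the core of hypoxia response elements) and CTTTGA or CTTTGT (the start of the TCF/LEF motif).
LEF1: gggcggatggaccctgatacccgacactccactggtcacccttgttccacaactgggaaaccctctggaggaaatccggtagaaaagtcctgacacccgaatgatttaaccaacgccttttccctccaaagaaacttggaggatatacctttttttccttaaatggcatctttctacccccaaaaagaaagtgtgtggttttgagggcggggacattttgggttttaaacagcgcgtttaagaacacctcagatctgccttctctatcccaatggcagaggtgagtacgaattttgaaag
RNF43 first: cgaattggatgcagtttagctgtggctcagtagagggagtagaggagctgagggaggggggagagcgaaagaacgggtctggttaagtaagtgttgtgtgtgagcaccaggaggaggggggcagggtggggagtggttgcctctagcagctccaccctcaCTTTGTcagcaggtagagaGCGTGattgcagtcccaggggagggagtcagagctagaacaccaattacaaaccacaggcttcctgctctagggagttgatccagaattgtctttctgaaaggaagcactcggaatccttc
RNF43 second: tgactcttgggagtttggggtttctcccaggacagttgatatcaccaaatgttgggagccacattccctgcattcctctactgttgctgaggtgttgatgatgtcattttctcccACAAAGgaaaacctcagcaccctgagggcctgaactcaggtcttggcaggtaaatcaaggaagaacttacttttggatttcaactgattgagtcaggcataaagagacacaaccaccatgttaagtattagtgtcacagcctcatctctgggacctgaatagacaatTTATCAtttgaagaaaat
TCF7: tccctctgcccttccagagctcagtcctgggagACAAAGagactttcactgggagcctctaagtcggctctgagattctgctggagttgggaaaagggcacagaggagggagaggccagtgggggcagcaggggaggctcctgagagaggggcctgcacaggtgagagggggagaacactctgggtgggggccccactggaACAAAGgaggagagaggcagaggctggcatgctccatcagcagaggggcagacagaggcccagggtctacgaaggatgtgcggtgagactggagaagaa

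The 1 window listed for LEF1 held none of the 6 words, and LEF1 sequence outside that window, including any other start site, was not examined. The first RNF43 window held 1 GCGTG and 1 CTTTGT, and the second held 1 TGATAA, on the reverse strand and after the start, and 1 CTTTGT. The TCF7 window held 2 matches to CTTTGT, and a further TCF7 window, not printed, held no match. Of 35116 promoter windows of this length, 10.3% held AGATAA, 7.53% TGATAA, 21.4% ACGTG, 36.5% GCGTG, 12.9% CTTTGA and 16.1% CTTTGT. The matches describe these letters in these windows, and binding was not measured. Windows were listed for 8 of the 10 members, and AXIN2 and NKD1 had none in the table used.

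Among the other 9 members, 1 passed the unadjusted threshold in each comparison. In siGATA3 against siControl this was RNF43, beside 2.94% of all genes called. In siHIF1A against siControl it was TCF7, beside 5.22% of all genes. In siGATA3 against siHIF1A it was CTNNB1, beside 12% of all genes. With 9 genes, 1 call is a small count against these shares, and none of the 3 had an adjusted P under 0.05. The median log2 difference of the 9 members was 0.00 in siGATA3 and -0.10 in siHIF1A against siControl, where the medians of all genes were -0.02 and -0.01. Without siControl replicate 3 CTNNB1 was called beside RNF43 in siGATA3, where 12.7% of all genes then passed, and without siControl replicate 1 CTNNB1 was called in place of TCF7 in siHIF1A, where 10.2% passed.

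RNF43, a membrane ubiquitin ligase that removes Frizzled receptors from the cell surface and is itself a Wnt target, was the member with the narrowest control values. Its normalized log2 signal was 10.93, 10.98 and 11.03 on the siControl arrays and 9.98, 10.35 and 10.40 on the siGATA3 arrays. On the siHIF1A arrays it was 10.43, 11.01 and 10.82. Every siGATA3 array was below every siControl and every siHIF1A array, and siHIF1A overlapped siControl.

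RNF43 fell by 0.74 on the log2 scale in siGATA3 (SE 0.239, 95% confidence interval -1.27 to -0.21, adjusted P = 1, limma), or 1.67-fold. The within-slide log2 differences were -0.96, -0.64 and -0.63, and RNF43 stayed past the unadjusted threshold with each of the 9 arrays left out in turn, at log2 differences from -0.82 to -0.61. In siHIF1A its log2 difference from siControl was -0.23 (SE 0.239, 95% confidence interval -0.76 to 0.31), which did not pass. Between the knockdowns RNF43 was lower in siGATA3 by 0.52 (SE 0.239, adjusted P = 0.42), which missed the unadjusted threshold. With the slide as a replicate block this last difference passed it, and 2 of the 9 members were then called, RNF43 and CTNNB1, beside 18.7% of all genes.

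TCF7 encodes TCF-1, the closest relative of LEF1 and a factor best known from T lymphocytes. Its normalized log2 signal was 11.38, 11.27 and 12.02 on the siControl arrays, 11.75, 11.66 and 12.14 on the siGATA3 arrays, and 11.84, 12.55 and 12.31 on the siHIF1A arrays. The siHIF1A values overlapped the siControl values, since siHIF1A replicate 1 lay below siControl replicate 3. TCF7 rose by 0.68 on the log2 scale in siHIF1A (SE 0.294, 95% confidence interval 0.02 to 1.33, adjusted P = 0.823, limma), or 1.6-fold. It was higher on each slide, by 0.46, 1.28 and 0.29. In siGATA3 the log2 difference was 0.29 (SE 0.294), which did not pass.

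The TCF7 call rested on a narrow margin. It was lost on leaving out siControl replicate 1 or 2, siGATA3 replicate 1 or 2, or siHIF1A replicate 2 or 3, with log2 differences of 0.518 to 0.907 over all 9 omissions. The second TCF7 probe had a log2 difference of 0.59 in siHIF1A (SE 0.497) and did not pass. The summed signal of the T lymphocyte markers given above was also highest on the siHIF1A arrays, and its part in the TCF7 value was not tested.

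TCF7L1 and TCF7L2, which encode TCF-3 and TCF-4, did not pass the unadjusted threshold in any comparison at the probe taken for each gene. TCF7L1 often acts as a repressor and TCF7L2 as the main effector of Wnt signalling in epithelia. The log2 differences of TCF7L1 from siControl were 0.03 in siGATA3 and -0.07 in siHIF1A (SE 0.379 for both). The 95% confidence intervals were -0.82 to 0.88 and -0.92 to 0.78, so differences of nearly 1 log2 unit could not be seen for this gene.

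TCF7L2 had normalized log2 signals of 15.11 to 15.23 on the siControl arrays, 14.86 to 15.26 on the siGATA3 arrays and 14.67 to 15.19 on the siHIF1A arrays. Its log2 differences were -0.16 in siGATA3 and -0.20 in siHIF1A (SE 0.235 for both). Of the 3 TCF7L2 probes, the one designed on transcript NM_001198531 departed from the others. It read 12.36, 12.98 and 12.50 on siGATA3 and 13.55, 13.37 and 13.00 on siHIF1A arrays, so that it was lower on every siGATA3 array, by 0.69 on the log2 scale (SE 0.266, adjusted P = 0.382, limma). This difference passed the unadjusted threshold, beside 12.3% of all probes, and the log2 differences at the other 2 probes were 0.04 and 0.54 and did not. The siControl value of replicate 1 is missing at that probe.

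CTNNB1 encodes β-catenin, which is controlled chiefly through the stability of the protein, and only its RNA was measured here. Its normalized log2 signal was 13.04, 13.91 and 14.50 on the siControl arrays, which overlapped the values of both knockdowns. It was 14.33, 13.88 and 14.49 on the siGATA3 arrays and 12.97, 13.59 and 13.30 on the siHIF1A arrays. Every siGATA3 array thus lay above every siHIF1A array.

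Against siControl neither difference of CTNNB1 passed, at 0.42 in siGATA3 and -0.53 in siHIF1A on the log2 scale (SE 0.37 for both). Between the knockdowns CTNNB1 was 0.95 higher in siGATA3 than in siHIF1A (SE 0.37, 95% confidence interval 0.12 to 1.78, adjusted P = 0.393, limma), or 1.93-fold, and by 1.37, 0.29 and 1.19 within slides 1 to 3. The second CTNNB1 probe gave 0.88 (SE 0.334, adjusted P = 0.376, limma) with the same separation of the groups. The median signal before normalization was higher on the siHIF1A than on the siGATA3 array of slides 1 and 3, and lower on slide 2. With the array's median signal as a covariate the log2 difference was 0.45 and no longer passed the threshold. The call was also lost without siGATA3 replicate 1 or 3 or siHIF1A replicate 1 or 3, at log2 differences of 0.791 to 0.955.

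**Figure D2:**
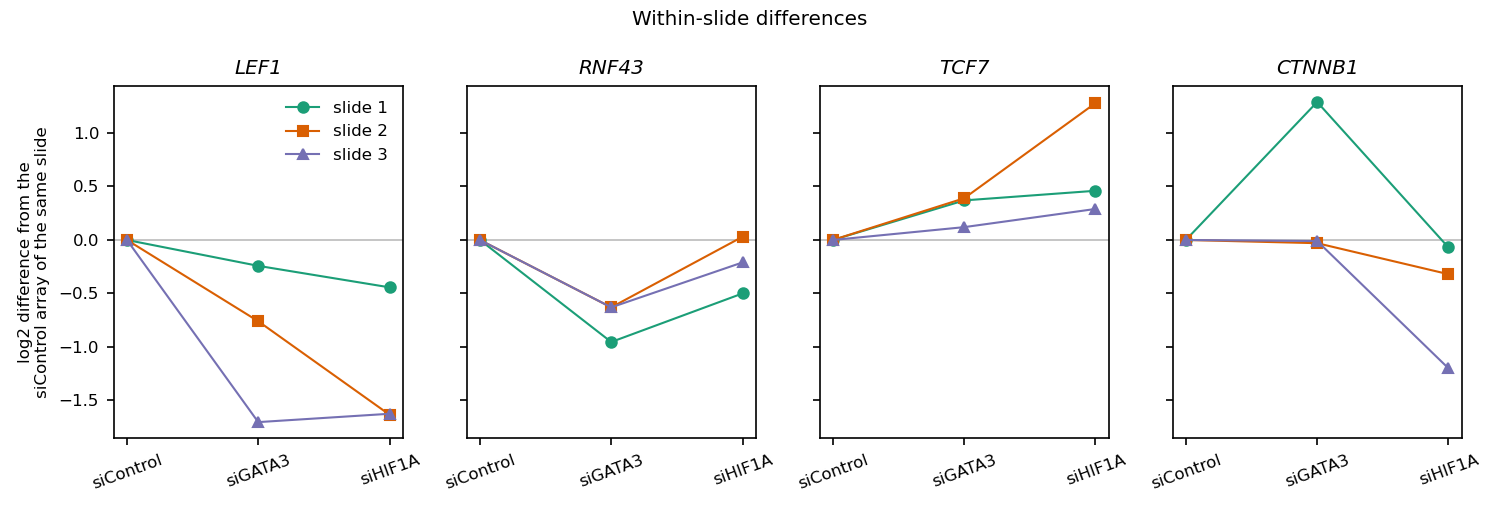
Log2 difference of LEF1, RNF43, TCF7 and CTNNB1 from the siControl array of the same slide (vertical axis), with 1 line per slide and siControl at 0 by construction. LEF1 is below 0 on each slide in both knockdowns, RNF43 is near -0.6 or lower in siGATA3 on each slide, and the CTNNB1 lines differ between slides, from 1.29 on slide 1 to -0.01 on slide 3 in siGATA3.

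AXIN1 and AXIN2 encode the scaffolds of the β-catenin destruction complex, AXIN1 at a steady level and AXIN2 as a direct target that reports pathway activity. AXIN1 had log2 differences of 0.34 in siGATA3 and 0.06 in siHIF1A from siControl (SE 0.283 for both), and neither passed. AXIN2 had normalized log2 signals of 12.55 to 14.10 on the siControl arrays and 12.31 to 13.51 on the siGATA3 arrays, and of 12.99 and 13.57 on the 2 siHIF1A arrays with a usable spot. Its log2 difference was -0.44 in siGATA3 (SE 0.449, 95% confidence interval -1.46 to 0.58) and -0.10 in siHIF1A (SE 0.502, 95% confidence interval -1.23 to 1.04), where replicate 1 was dropped from the fit. Within slides the siGATA3 differences of AXIN2 were -0.59, -0.49 and -0.25, all of them negative, while the siHIF1A differences were -0.49 and 1.02 on slides 2 and 3.

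The second AXIN2 probe was dim. It was well above background on all 3 siControl arrays and on no array of either knockdown. Over all probes, too, such marks were fewer on siGATA3 than on siControl arrays. The mean log2 signal of the second AXIN2 probe was 8.39 in siControl. By group means it was 1.35-fold lower in siGATA3 and 1.22-fold lower in siHIF1A. The values of both knockdowns overlapped those of siControl, and neither difference passed the threshold. These folds lie between measured means near background and do not cover the spread between arrays, so they give no smallest fall.

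NKD1, a cytoplasmic inhibitor that binds Dishevelled and a feedback target of the pathway, had the widest control values of the set, with normalized log2 signals of 13.08, 12.65 and 11.19 on the siControl arrays. It was 12.48, 12.79 and 11.67 on the siGATA3 arrays and 12.94, 12.62 and 12.68 on the siHIF1A arrays. The log2 differences from siControl were 0.00 in siGATA3 and 0.44 in siHIF1A (SE 0.469 for both), and the latter was carried by slide 3, at 1.49 against -0.15 and -0.03 on slides 1 and 2.

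DKK1, a secreted antagonist that binds LRP5 and LRP6, followed the slide more than the group. Its normalized log2 signal was 11.54, 12.99 and 13.04 on the siControl arrays, 11.40, 12.33 and 11.99 on the siGATA3 arrays, and 11.19, 13.06 and 12.39 on the siHIF1A arrays, with the lowest value of each group on slide 1. The log2 difference in siGATA3 was -0.61 (SE 0.536) and did not pass. With the slide as a replicate block its SE was 0.265 and it passed the unadjusted threshold, so that 2 of the 9 members, DKK1 and RNF43, were called in siGATA3 beside 4.96% of all genes. The within-slide differences were -0.14, -0.66 and -1.04. In siHIF1A the log2 difference of DKK1 was -0.31 (SE 0.536), with a value of 0.07 on slide 2 against -0.35 and -0.64 on the others.

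In siGATA3 the log2 differences were -0.74 for RNF43, -0.61 for DKK1, -0.44 for AXIN2 and 0.00 for NKD1, and in siHIF1A they were -0.23, -0.31, -0.10 and 0.44 in the same order. Only RNF43 in siGATA3 passed the test without the block, and the intervals of the other values included 0. Differences between the readouts were not tested.

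**Figure D3:**
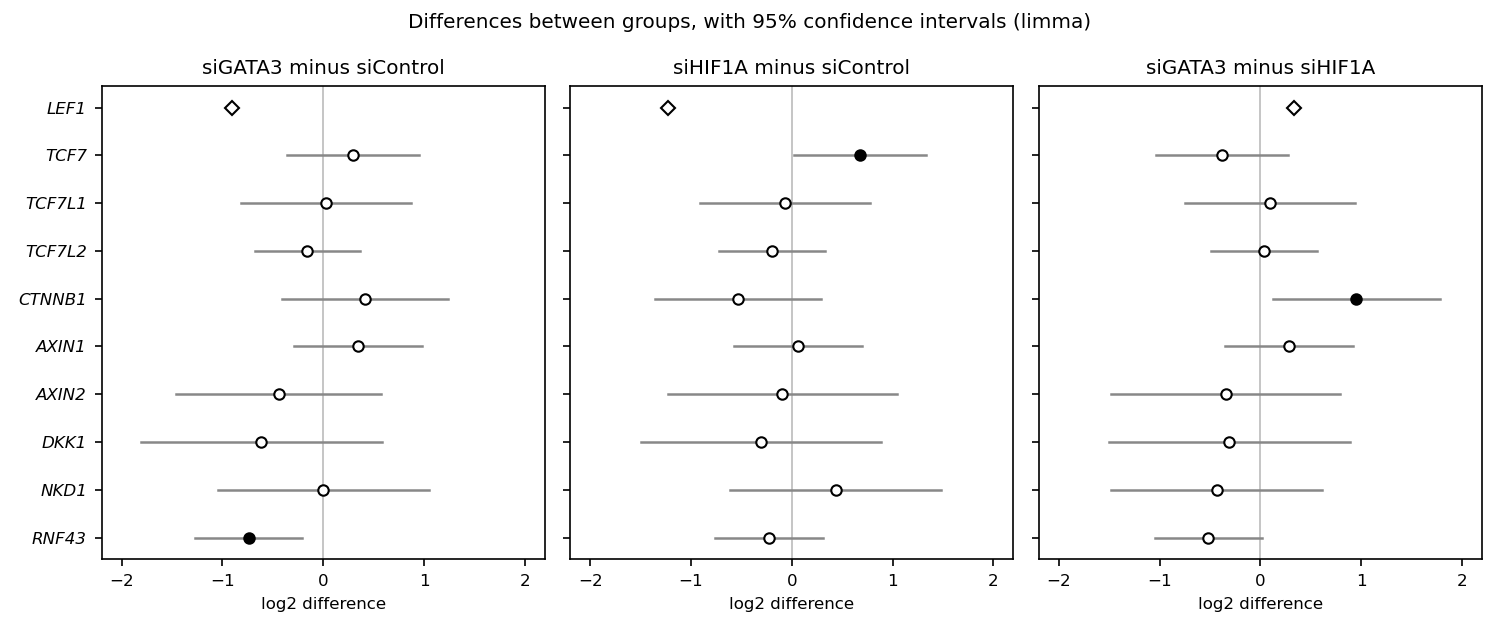
Log2 differences (horizontal axis) of the 10 members for siGATA3 and siHIF1A against siControl and for siGATA3 against siHIF1A, with 95% confidence intervals from limma as lines. Filled points passed the unadjusted P of 0.05, which held for RNF43 at -0.74, TCF7 at 0.68 and CTNNB1 at 0.95. The open diamonds of LEF1 have no interval, because 2 of those differences chose the set and its siHIF1A values have only a bound.

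The other genes of the Wnt pathway were taken from a list of 93 genes ordered by role, of which 91 were measured. That list was drawn up with earlier results of these data known, so its share of calls is not an independent comparison with all genes. In siGATA3 against siControl 6 of 91 passed the unadjusted threshold, or 6.59% of the list beside 2.94% of all genes, with 2 higher and 4 lower. In siHIF1A 2 of 91 passed, or 2.2% beside 5.22% of all genes, with 1 higher and 1 lower. The median log2 difference of the list was -0.04 in siGATA3 and -0.03 in siHIF1A. With the slide as a replicate block the counts were 9 of 91 in siGATA3, beside 4.96% of all genes, and 6 of 91 in siHIF1A, beside 8.41%. The counts leaned on single arrays. In siGATA3 only TLE4 of these 6 genes, with BCL9, passed without siControl replicate 1, beside 2.28% of all genes, and 11 genes passed without siControl replicate 3, beside 12.7%. In siHIF1A the count was 7 without siControl replicate 1, 4 without siGATA3 replicate 2 and 1 without siHIF1A replicate 1, beside 10.2%, 5.91% and 2.97% of all genes. The omissions thus also changed the calls over the whole array.

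The co-receptors LRP6 and LRP5, which take up the Wnt signal beside Frizzled, were both higher in siGATA3. LRP6 rose by 0.76 on the log2 scale (SE 0.248, adjusted P = 1, limma), from 10.05, 10.28 and 10.67 on the siControl arrays to 11.27, 10.82 and 11.18 on the siGATA3 arrays. LRP5 rose by 0.57 (SE 0.228, adjusted P = 1, limma), from 14.43, 14.47 and 14.53 to 15.37, 14.87 and 14.89. Neither gene's siGATA3 values overlapped its siControl values. In siHIF1A the log2 differences were 0.25 for LRP6 and 0.45 for LRP5 and did not pass. The LRP5 values there, 15.02, 14.98 and 14.76, also lay above every siControl value, while those of LRP6 overlapped. Between the knockdowns the log2 differences were 0.51 for LRP6 (SE 0.248) and 0.12 for LRP5 (SE 0.228), higher in siGATA3, and neither passed. The other 13 receptors and co-receptors of the list did not pass in either knockdown, although with the slide as a replicate block FZD1 passed in siGATA3 and FZD7 in siHIF1A.

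LGR4 and LGR6, receptors of R-spondins, through which RNF43 is cleared from the membrane, were lower in siGATA3. LGR4 fell by 0.87 (SE 0.338, adjusted P = 1, limma) and LGR6 by 0.79 (SE 0.343, adjusted P = 1, limma) on the log2 scale. LGR4 read 11.16, 10.39 and 11.38 on siControl and 10.61, 9.54 and 10.17 on siGATA3 arrays, and these groups overlapped, while LGR6 read 13.35, 12.44 and 12.47 against 12.17, 12.16 and 11.56 and did not overlap. In siHIF1A the log2 differences were -0.53 and -0.01, which did not pass.

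The largest difference of the list in siGATA3 was that of WNT2B, a ligand of the canonical pathway. It fell by 1.44 on the log2 scale (SE 0.539, adjusted P = 1, limma), from 14.64, 13.67 and 13.47 on the siControl arrays to 13.31 and 11.67 on the siGATA3 arrays of replicates 1 and 3, with replicate 2 dropped for a non-uniform spot. The other 18 ligands did not pass in siGATA3.

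TLE4 and TLE2 encode co-repressors that bind LEF1 and the TCFs. TLE4 fell by 0.75 in siGATA3 (SE 0.243, adjusted P = 1, limma), from 12.27, 12.10 and 11.72 to 11.52, 11.25 and 11.07, and its log2 difference in siHIF1A was 0.06. TLE2 rose by 0.66 in siHIF1A (SE 0.272, adjusted P = 0.823, limma), from 11.08, 10.47 and 11.15 to 11.66, 11.68 and 11.33, and its log2 difference in siGATA3 was -0.33. In neither case did the groups overlap. Set directly against each other, the knockdowns differed in TLE4 by -0.81 (SE 0.243) and in TLE2 by -0.99 (SE 0.272), lower in siGATA3. Both differences passed the unadjusted threshold (adjusted P = 0.342 and 0.313, limma), beside 12% of all genes. This comparison reuses the knockdown arrays on which the genes were called.

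WLS, which carries Wnt ligands to the cell surface, was the other gene called in siHIF1A. It fell by 0.95 (SE 0.424, adjusted P = 0.823, limma), from 11.59, 12.04 and 13.03 on the siControl arrays to 10.87, 11.57 and 11.38, without overlap. Its log2 difference in siGATA3 was -0.05. Without the block none of the 12 further targets in the list, among them MYC, CCND1 and CD44, passed in either knockdown, and their log2 differences ranged from -0.23 to 0.71 in siGATA3 and from -1.11 to 0.65 in siHIF1A. ASCL2 was the lowest of them in siGATA3 and the highest in siHIF1A, and FOSL1 the reverse. With the slide as a replicate block FOSL1 passed in both, and its within-slide log2 differences were 1.44, 0.39 and 0.30 in siGATA3 and -1.02, -1.19 and -1.11 in siHIF1A.

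**Figure D4:**
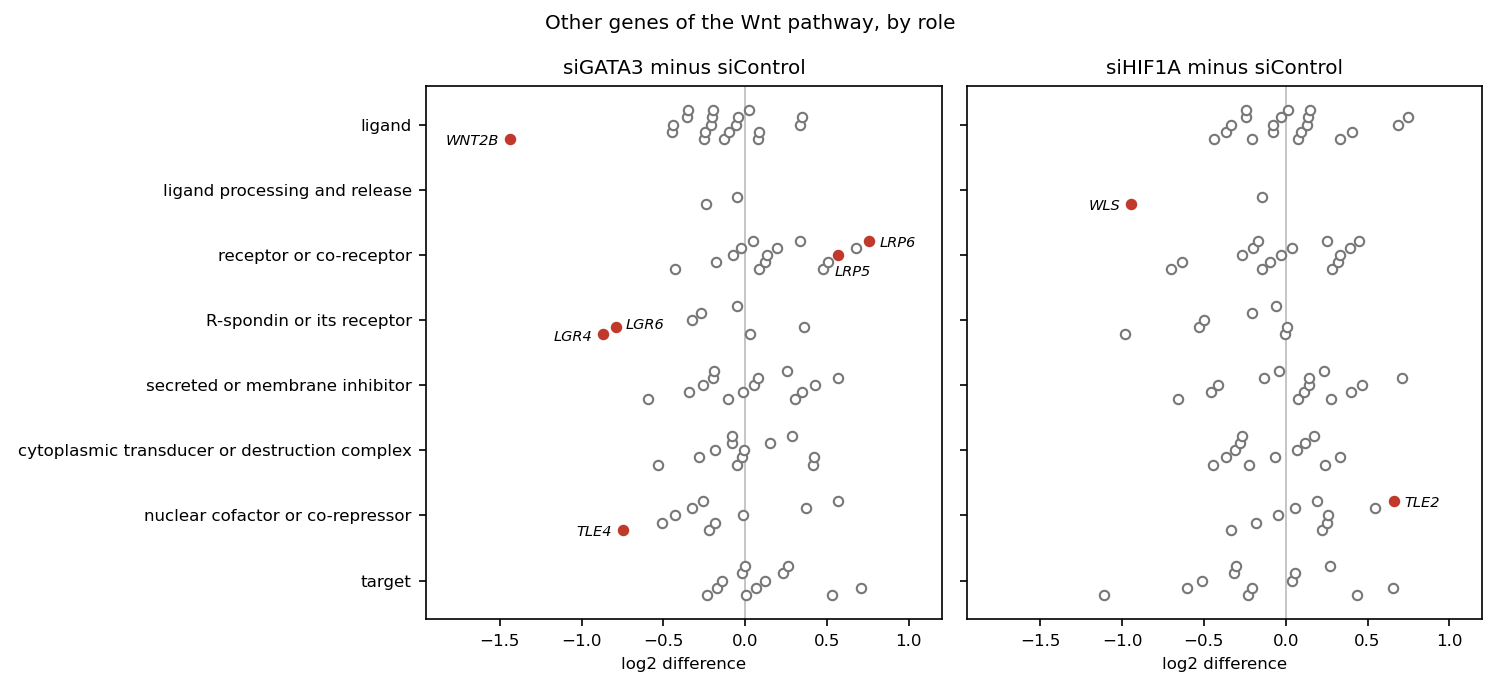
Log2 difference (horizontal axis) of the 91 measured genes of the Wnt list for siGATA3 and siHIF1A against siControl, 1 point per gene, grouped by role, with small vertical shifts that carry no value. Red points passed the unadjusted P of 0.05, namely WNT2B, LRP6, LRP5, LGR4, LGR6 and TLE4 in siGATA3 and WLS and TLE2 in siHIF1A. The remaining points are open and lie on both sides of 0 in nearly every role.

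Between the knockdowns 8 of the 91 genes passed, or 8.79% beside 12% of all genes, with 2 higher and 6 lower in siGATA3. With the slide as a replicate block 19 of 91 passed, beside 18.7% of all genes, and 9 of them were higher and 10 lower. Without the block the 2 higher genes were FOSL1, an AP-1 subunit counted among the targets, at 1.82 (adjusted P = 0.32, limma), and ROR2, a receptor of non-canonical Wnt ligands, at 1.11 (adjusted P = 0.318, limma). The 6 lower genes were WNT2B, WNT7B, LGR6, SOST, TLE2 and TLE4, with log2 differences of -1.84 to -0.79.

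The profile of LEF1 over the 9 arrays was set against those of 17250 genes whose probe was well above background on every array of 1 group or more. These coefficients share arrays, slides and groups, and LEF1 was itself chosen for its group pattern, so they are descriptions. The genes most like LEF1 were UBA6-DT with a Pearson r of 0.949, PTPN5 with 0.934, ZNF224 with 0.92, AFDN-DT with 0.912 and DOK3 with 0.91. PTPN5 was well above background on all 3 siControl, no siGATA3 and 2 siHIF1A arrays, so that, like LEF1, it entered only through the group in which it is high, and its likeness is in part set by that choice. The log2 signal of AFDN-DT, a divergent transcript of AFDN, was 10.43, 11.02 and 11.31 on siControl and 9.73 to 10.06 on all 6 knockdown arrays. No other member was among these genes, and the coefficients of the other members with LEF1 ran from -0.49 for TCF7 to 0.50 for DKK1, with 0.41 for CTNNB1 and 0.40 for RNF43. AXIN2 had -0.10, taken without siHIF1A replicate 1, where it has no value, and NKD1 had -0.43.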

How the data were processed

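RNA from OEC-M1 cells was measured on 9 Agilent arrays. For each array the authors deposited intensity values from Feature Extraction 10.5.1.1 (version per the submitters' processing notes and file headers), namely the median spot and background intensity and the processed intensity, on a linear scale, with no normalization across arrays. A table of log2 values was deposited too, which on every array is the log2 processed intensity less 1 constant (at least 99.5% of values within 0.001).

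Background was corrected by normexp with an offset of 50 on the median spot intensity, because the files hold the median and not the mean that the design had assumed. Spots marked non-uniform were set to missing, quantile normalization was applied, controls were removed, repeated spots were averaged, and each gene was read at its brightest probe. Of 58201 probes, 31104 matched a RefSeq symbol through their accession. The 3 groups were fitted in 1 limma 3.58.1 model (R 4.3.3), and calls were made at a two-sided unadjusted P of 0.05. Quantile normalization and the offset compress differences of dim probes. Well above background is the scanner software's own mark. The fit was tested on simulated data.

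The members and gene lists were chosen with earlier results of these data known. Genes named are all members, Wnt list genes past the threshold (up to 10 per knockdown, by size), and the 5 genes most correlated with LEF1. Others, such as the genes called between the knockdowns, the targets and genes of the counts with arrays left out, were named after their values were seen. Of the Wnt list, CSNK1A1 and CSNK1E were not matched, and of the macrophage markers CD68 was not. Deviations from the group means correlated at 0.21, 0.582 and 0.718 between siControl and siGATA3 arrays of the same number, at 0.605, 0.121 and 0.0624 between siControl and siHIF1A, and at 0.329, -0.197 and 0.101 between the knockdowns. As the file headers put same-numbered arrays on 1 slide, the slide was fitted as a replicate block beside the main model. The other alternatives were non-uniform spots kept, dim probes left out, the deposited log2 table of the authors, the processed intensity set to a common 75th percentile, normexp with no offset, uncorrected intensity, means over a gene's probes, fits of only the 6 arrays compared, trend and robust options of eBayes, array brightness as a covariate, adjusted P, and each array left out.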

Additional observations from a re-analysis of the deposited data

How the results depend on the processing

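LEF1 stayed below siControl in both knockdowns under all 20 alternatives run for each difference. Its log2 differences in siGATA3 and siHIF1A were -1.6 and -2.2 with the processed signal set to a common 75th percentile, and -1.61 and -2.22 with the authors' log2 table, and leaving out 1 array gave -1.28 to -0.63 and -1.61 to -0.97. The direct LEF1 difference kept its sign and stayed short of the threshold in all 21.

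The count of other members called in siGATA3 was 1, and it was 2 with the replicate block, 1 to 2 with an array left out and 0 at an adjusted P of 0.05. In siHIF1A the count of 1 became 0 with normexp without an offset, the authors' log2 table, the mean of a gene's probes, separate fits of 6 arrays, trend and robust eBayes, and an adjusted P of 0.05, and ranged from 0 to 1 with an array left out. RNF43 in siGATA3 passed in all 20 alternatives at an unadjusted P, TCF7 in siHIF1A in 9 of 20 and CTNNB1 between the knockdowns in 15 of 20.

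The Wnt list count in siGATA3 was 3 in separate fits of 6 arrays, 0 at an adjusted P and 2 to 11 with an array left out, beside 6 as reported. In siHIF1A, beside 2 as reported, it was 1 without the offset, without background correction, with dim probes left out and with trend and robust eBayes, 4 in separate fits, 6 with the replicate block, 12 with array brightness as a covariate, 0 at an adjusted P and 1 to 7 with an array left out. The calls over all genes also changed with the setting, in siHIF1A for instance from 5.22% to 8.41% of genes with the replicate block. Given here without the share of all genes under each setting, the counts of members and of Wnt genes are no result about those genes. No called difference of a member changed sign, and the cause of these shifts in the counts was not tested. LEF1 and the second AXIN2 probe lay near background in the knockdowns, where signal over background limits the size of a difference.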
